A study of Mus musculus with 12 samples.

Results

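The genes of the cytosolic ribosomal proteins were followed in RNA sequencing of macrophages grown in culture from the bone marrow of mice. Members were chosen by name and selected on total reads: the genes whose symbol has the form of a small-subunit (Rps) or large-subunit (Rpl) protein, with the stalk genes Rplp0, Rplp1 and Rplp2 and the gene Rpsa, and with at least 1 read over all libraries. Of 84 genes with such a symbol, 83 had a read (Rpl10l had none), out of 21899 genes in the table. The rule itself uses no comparison between groups. Of the members, 32 belong to the small and 51 to the large subunit. Ribosomal proteins with other symbols, such as the fusion gene Fau, were kept as a separate list.

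Each of 4 groups held 3 libraries: cells given PgLPS with CS-PA/CNP (called both agents below), cells given PgLPS, cells given CS-PA/CNP, and control cells. All were from wild-type mice per the labels, which give no dose, time or spelling-out of either agent. Some sample titles call their library a biological replicate, but do not say whether replicates were separate animals or separate cultures. What the p-values weigh is therefore variation from library to library, and how much of it is technical is not known. Libraries held 14992707 to 20082900 reads in 13169 to 13511 detected genes. All 8 macrophage markers, among them Adgre1, Cd68 and Lyz2, had reads in every library, and the T cell marker Cd3d had none in any. Levels given as CPM are reads per 1000000 of the library total times its TMM factor, a scaling factor that lay between 0.890 and 0.901 with both agents, 0.853 and 0.875 with PgLPS, 1.11 and 1.12 with CS-PA/CNP, and 1.15 and 1.16 in control.

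The cytosolic ribosome is built from a small subunit, which reads the messenger, and a large subunit, which joins amino acids. Each holds ribosomal RNA and 1 copy of most of its proteins, so the proteins are made in matched amounts, and their messengers are among the most abundant in a growing cell. Many of these messengers start with an unbroken run of pyrimidines, the terminal oligopyrimidine tract, through which the growth kinase mTOR and the protein LARP1 are known to control their translation and stability. In macrophages, activation through Toll-like receptors is known to alter the translation of many messengers.

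The annotated starts of the members are shown first, because the pyrimidine run sits there. RefSeq promoter entries on GRCm38.p6 were found for 63 of the 83 members. A C at the annotated start followed by at least 4 more pyrimidines was present in 13 of those 63 (20.6%), against 813 of 27025 genes in the promoter table (3.01%). The letters CCGGAAG, part of the motif of ETS family factors, were found on either strand of 41.3% of member promoters and 9.93% of all promoters of the same length, and the letters AAGATGG, part of the motif of YY1, in 15.9% and 7.28%. The windows below run from 30 bases before the annotated start to 20 bases from it. The first 4 are among the members with the largest falls in PgLPS against control that had an entry, the next 3 are those that rose there under TMM scaling, and the last 3 are the members with the longest run from a C at the start. Capitals mark the longest pyrimidine run within 10 bases of the start, or, in the last 3, the run that begins at the start itself.
Rpsa (chr9:120127736-120127785, + strand): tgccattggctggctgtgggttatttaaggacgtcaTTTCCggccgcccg
Rpl10a (chr17:28328441-28328490, + strand): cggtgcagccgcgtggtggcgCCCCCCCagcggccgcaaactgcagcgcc
Rpl12 (chr2:32961682-32961731, + strand): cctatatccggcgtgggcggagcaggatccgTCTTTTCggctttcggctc
Rps15 (chr10:80292401-80292450, + strand): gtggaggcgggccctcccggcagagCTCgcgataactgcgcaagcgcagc
Rps9 (chr7:3704011-3704060, + strand): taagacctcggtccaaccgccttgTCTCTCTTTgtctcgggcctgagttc
Rpl27 (chr11:101442215-101442264, + strand): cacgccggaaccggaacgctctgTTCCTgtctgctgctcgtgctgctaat
Rpl7l1 (chr17:46782637-46782686, - strand): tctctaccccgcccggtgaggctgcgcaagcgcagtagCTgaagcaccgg
Rpl15 (chr14:18270967-18271016, - strand): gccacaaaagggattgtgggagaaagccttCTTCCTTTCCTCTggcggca
Rpl35 (chr2:39005112-39005161, - strand): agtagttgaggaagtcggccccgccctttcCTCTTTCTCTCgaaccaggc
Rps10 (chr17:27635225-27635274, - strand): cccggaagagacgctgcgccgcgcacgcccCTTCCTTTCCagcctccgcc
The windows show that the annotated start can lie a few bases away from the run, as in Rpsa and Rpl10a, or inside it, as in Rps9, so the count of 13 depends on the exact start that RefSeq lists.

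Between genes, levels were compared per length, as reads per kilobase of the gene and per 1000000 reads of the library (FPKM), computed from the deposited counts and gene lengths. The median of the 83 members, each averaged over 12 libraries, was 132 FPKM, against 5.71 FPKM for all tested genes, and 52 members exceeded 100 FPKM. Rplp1, an acidic protein of the large-subunit stalk that binds elongation factors, was the highest at 929 FPKM. Its level was 789 ± 56 FPKM with both agents, 691 ± 128 with PgLPS, 1160 ± 125 with CS-PA/CNP and 1077 ± 92 in control (SD, n = 3 each). These values use library totals without TMM factors, so they are not a comparison between groups. With TMM, Rplp1 did not pass the threshold used below in PgLPS against control. Its log2 fold change there ran from -0.39 to -0.11 when libraries were left out one at a time. Next in order of mean level came Rplp0, the stalk protein that carries the acidic ones, at 595 FPKM, Rps15 of the small-subunit head at 571 FPKM, and Rps3a1 at 530 FPKM. In control cells the levels were 686 ± 35 FPKM for Rplp0, 708 ± 58 for Rps15 and 630 ± 13 for Rps3a1 (SD, n = 3 each). The spreads of Rplp0 and Rps15 overlapped there, while that of Rplp1 lay above both and that of Rps3a1 below both.

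A small set lay far below the rest. Rpl23a had 5.38 FPKM, Rpl22l1 2.89, Rpl13a 2.07, Rps10 1.62 and Rpl36al 0.419. Another 3 did not pass the filter on low counts and were not tested: Rpl24 with 59 reads over all libraries, Rpl39l with 56 and Rpl3l with 10. Rpl22l1, Rpl36al, Rpl39l and Rpl3l are second copies (paralogues) of other members, and in mouse Rpl3l is known from muscle and Rpl39l from testis. Rpl13a, Rps10, Rpl23a and Rpl24 are components of the standard ribosome, and their counts lay among the lowest. In the GENCODE annotation of GRCm38, 29.4% of the exon bases of Rpl13a, 20.6% of those of Rps10 and 24.5% of those of Rpl36al also belong to a protein-coding read-through gene on the same strand (Gm45713, RPS10-NUDT3 and Gm49383). Each of those 3 genes is listed with 0 reads in the table. Rpl24 shares 47.0% of its exon bases with Gm28037, which is not used here. The part of these overlaps in the low counts was not tested. Sequence shared with other genes was common: 57 of 83 members shared over 20% of their 100-base words with transcripts of other genes (median 31.3%), so their counts depend on how the authors treated reads with several matches.

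In PgLPS against control, the question was what PgLPS alone did to these messengers. The family took up a smaller part of all reads with PgLPS. The members held 2.12%, 2.38% and 2.07% of reads with both agents, 1.72%, 2.11% and 1.85% with PgLPS, and 2.78%, 2.92% and 3.12% with CS-PA/CNP, against 2.65%, 2.94% and 2.92% in control. All 3 PgLPS libraries lay below all 3 control libraries. The mean share with PgLPS was 0.666 of that in control. When each library total was multiplied by its TMM factor, the ratio was 0.889, and the groups then overlapped at 1.96% to 2.48% with PgLPS and 2.28% to 2.57% in control. In bulk RNA, fewer cells of a type and less RNA per cell cannot be told apart, and a share falls when other messengers rise. As a scale that needs no factor, the members gave 11.7 to 12.2 reads per read of the mitochondrial ribosomal protein genes with both agents, 11 to 11.5 with PgLPS, 13.1 to 14.0 with CS-PA/CNP and 13.4 to 13.9 in control. The 2 groups with PgLPS lay below the 2 without it on this measure. The mitochondrial genes are not a fixed reference. With TMM, their median log2 fold change in PgLPS against control was 0.05, and the highest of them, Mrpl52, stood at 2.46. The part of such changes in the ratio was not tested.

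**Figure D1:**
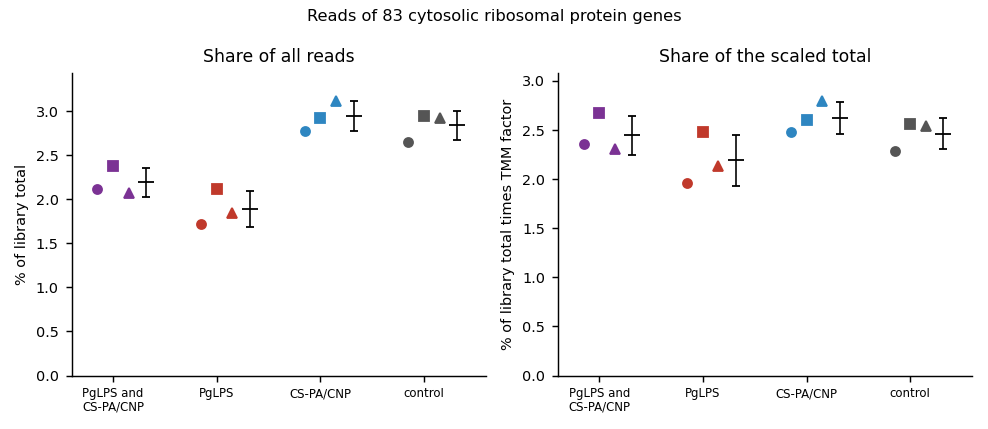
Percent of the library total (left) and of the total times its TMM factor (right) held by the 83 genes in each of 12 libraries, with circle, square and triangle for libraries 1, 2 and 3 and a bar for mean ± SD (n = 3). On the left, PgLPS lies at 1.72% to 2.11% and control at 2.65% to 2.94%, and on the right the same groups overlap.

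With TMM scaling, 29 of 80 tested members fell, 3 rose and 48 were not called in PgLPS against control (edgeR quasi-likelihood test, Benjamini-Hochberg adjusted p under 0.05 over 11656 tested genes). Of all tested genes, 31.6% fell and 32.2% rose, so the share of members that fell was near the background and the share that rose was below it. The median log2 fold change was -0.13, against -0.0036 for all tested genes, and the members were close together, with an SD of 0.22 between genes where all tested genes had 1.48. Small-subunit genes fell in 14 of 32 cases and large-subunit genes in 15 of 48. With library totals in place of TMM, 74 members fell and none rose, with a median of -0.54. That scaling moved the median of all tested genes to -0.42, and with upper quartile factors 59 fell and none rose. Upper quartile factors moved the median of all tested genes to -0.23. The shares of all tested genes called with library totals and upper quartile factors are not given here. The 74 and 59 are therefore not set against a background. The count that fell was 46 without PgLPS library 2, and 19 without PgLPS library 1 or library 3. With 1 library left out, the count that rose ran between 1 without control library 1 and 5 without PgLPS library 1. Over the same fits, 3372 to 3633 of all tested genes fell and 3384 to 3659 rose. Of the 32 calls, 18 were made in every fit that left out 1 library.

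**Figure D2:**
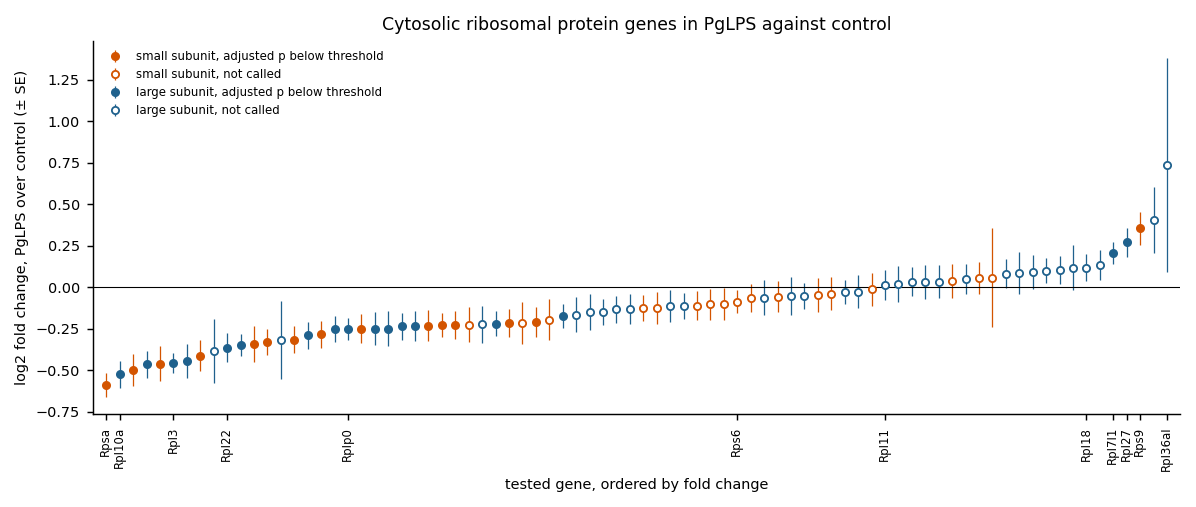
Log2 fold change in PgLPS over control for the 80 tested members, ordered by size, with SE as bars, colour for the subunit, filled points for adjusted p below 0.05 and names under some of the genes. The values run from -0.59 for Rpsa to 0.74 for Rpl36al, which had 117 reads in all and the widest bar, and 58 lie below 0.

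Rpsa, Rpl10a, Rpl12 and Rps15 were among the called members with the largest falls. Rpsa (ENSMUSG00000032518, chromosome 9), a small-subunit protein that also serves as a laminin receptor, had 512, 637 and 575 CPM with PgLPS, against 809, 897 and 889 CPM in control. Its 3 PgLPS libraries lay below all control libraries, and the log2 fold change was -0.59 ± 0.07 (SE, edgeR BH-adjusted p = 9.2e-07). Rpl10a, a protein of the mobile stalk near the exit site for transfer RNA, had 256, 321 and 302 CPM with PgLPS, against 387, 439 and 439 CPM in control. Again no PgLPS library reached a control library (-0.53 ± 0.08, edgeR BH-adjusted p = 2.2e-05). Rpl12, at the base of the stalk that binds elongation factors, had 225, 279 and 240 CPM with PgLPS and 313, 359 and 355 CPM in control, with no overlap (-0.46 ± 0.08, edgeR BH-adjusted p = 5.5e-05).

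Rps15, which sits in the head of the small subunit, had 228, 332 and 283 CPM with PgLPS, against 348, 407 and 408 CPM in control. The highest PgLPS library was close to the lowest control library, and the change was -0.46 ± 0.11 (edgeR BH-adjusted p = 0.00088). The core proteins of the large subunit Rpl3, beside the peptidyl transferase centre, and Rpl4, which lines the exit tunnel, changed by -0.46 ± 0.06 and -0.35 ± 0.07 in PgLPS over control (edgeR BH-adjusted p = 3.0e-06 and 0.00017). These 6 genes kept their direction under library totals, RLE and upper quartile factors.

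The other members that fell were spread over both subunits. Rpl5, which binds the smallest ribosomal RNA together with Rpl11, changed by -0.25 ± 0.08 (edgeR BH-adjusted p = 0.0088), while its partner Rpl11 stood at 0.01 ± 0.09 and was not called. Rps27a, which is made as a fusion with ubiquitin, changed by -0.23 ± 0.09 (edgeR BH-adjusted p = 0.038), and was not called in 4 of the 6 fits without 1 library. Fau, made as a fusion with a ubiquitin-like protein, was not called at -0.03 ± 0.10. Rps6, the main ribosomal substrate of the S6 kinases, did not pass at -0.09 ± 0.07 (edgeR BH-adjusted p = 0.28).

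Rps9, Rpl27 and Rpl7l1 were the members that rose with TMM scaling, and with library totals their log2 fold changes were -0.061, -0.15 and -0.21. Rps9, known in yeast for its part in the accuracy of decoding, had 547, 755 and 637 CPM with PgLPS, against 453, 534 and 530 CPM in control. All PgLPS libraries lay above all control libraries, by a small margin for library 1 (0.36 ± 0.10, edgeR BH-adjusted p = 0.0045). Rpl27, of the large subunit, had 215, 268 and 213 CPM with PgLPS and 184, 203 and 190 CPM in control (0.27 ± 0.09, edgeR BH-adjusted p = 0.010). The call for Rpl27 was lost without PgLPS library 2 (0.15, adjusted p = 0.084, edgeR) and without control library 1. Rpl7l1, a paralogue of Rpl7 known in human cells from large-subunit assembly, had 111, 121 and 113 CPM with PgLPS and 95.0, 103 and 101 CPM in control. These groups did not overlap (0.21 ± 0.07, edgeR BH-adjusted p = 0.010), and the call was lost without control library 1.

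The make-up of the family itself can be read without scaling between libraries, as each gene's percent of all member reads. Rpsa and Rps9 are shown because they were the lowest and the highest called members, so their values are a description. Rpsa made up 3.06%, 2.89% and 2.94% of member reads with both agents, 2.61%, 2.57% and 2.70% with PgLPS, and 3.75%, 3.61% and 3.56% with CS-PA/CNP, against 3.54%, 3.5% and 3.49% in control. Rps9 made up 2.61%, 2.68% and 2.69% with both agents, 2.79%, 3.05% and 2.99% with PgLPS, and 2.12%, 2.19% and 2.25% with CS-PA/CNP, against 1.98%, 2.08% and 2.08% in control. For both genes the libraries with both agents lay between those with PgLPS and those of control. There were 112 ± 6 reads of Rps9 per 100 reads of Rpsa with PgLPS and 58.4 ± 2.1 in control (SD, n = 3 each).

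**Figure D3:**
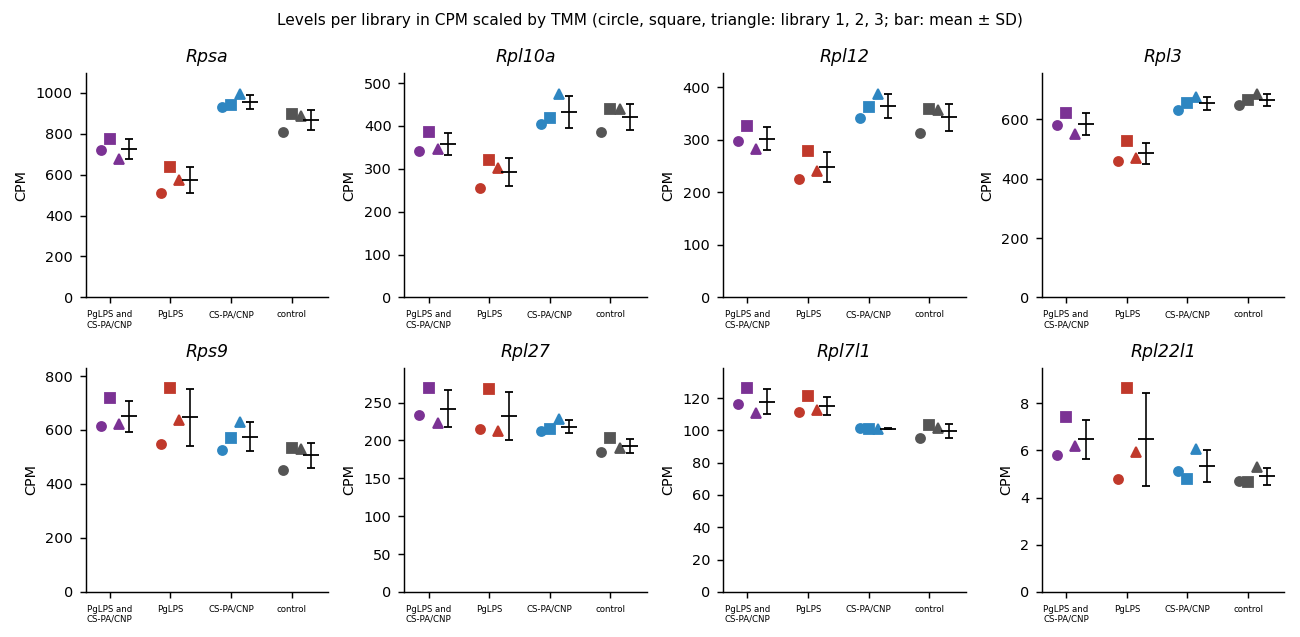
CPM per library of 8 members in the 4 groups, with circle, square and triangle for libraries 1, 2 and 3 and a bar for mean ± SD (n = 3). The upper row holds Rpsa, Rpl10a, Rpl12 and Rpl3, where PgLPS libraries lie below control libraries, and the lower row holds Rps9, Rpl27 and Rpl7l1, where they lie above, and Rpl22l1, where they overlap.

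For 4 paralogues a test against the parent gene could be made. Rpl22l1, the paralogue of the RNA-binding large-subunit protein Rpl22, had 4.8, 8.64 and 5.94 CPM with PgLPS, against 4.72, 4.67 and 5.31 CPM in control. The groups overlapped, and it was not called (0.41 ± 0.20, edgeR BH-adjusted p = 0.083), although it passed without PgLPS library 1 (0.57, adjusted p = 0.019, edgeR). Its parent Rpl22 fell by 0.36 ± 0.09 on the log2 scale (edgeR BH-adjusted p = 0.0016). The ratio of the 2 genes needs no scaling. Per 100 reads of Rpl22 there were 4.70, 5.24 and 5.36 reads of Rpl22l1 with both agents, 4.66, 6.52 and 5.38 with PgLPS, and 3.77, 3.24 and 4.0 with CS-PA/CNP, against 3.37, 3.10 and 3.43 in control. All PgLPS libraries were above all control libraries (ratio of means 1.67, exact permutation test, 2-sided, p = 0.1, the smallest that 3 against 3 can give, and BH-adjusted p = 0.32 over 16 such tests on 4 pairs). In the annotation, 40.6% of the 100-base words of Rpl22l1 are shared with another gene.

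Rpl7l1 had 25.8, 24.2 and 25.8 reads per 100 reads of Rpl7 with PgLPS, against 19.3, 19.2 and 19.7 in control (ratio of means 1.3, exact permutation p = 0.1, 2-sided, BH-adjusted p = 0.32). The other 2 pairs overlapped. Rps27l, in human cells a p53-responsive paralogue of Rps27, had 57.0 to 65.9 reads per 100 reads of Rps27 with PgLPS and 64.2 to 67.5 in control. Rpl36al had 0.189 to 1.02 reads per 100 of Rpl36a with PgLPS and 0.248 to 0.494 in control, from 117 reads in all.

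In both agents against PgLPS, the question was whether adding CS-PA/CNP changed these messengers in cells given PgLPS. With TMM scaling, 7 of 80 members rose and none fell, where 9.42% of all tested genes rose and 10% fell, so the share of members that rose was near the background in this fit. With the library number as a block, 28 of 80 rose and none fell, where 12% of all tested genes rose and 12.9% fell, so that share was above the background. The median log2 fold change was 0.14 and 72 of 80 lay above 0, against a median of -0.0051 over all tested genes. The 7 were Rpsa, Rpl10a, Rpl12, Rpl3, Rpl14, Rpl4 and Rplp0. At an unadjusted p under 0.05, 22 were higher and 0 lower by edgeR. Library totals gave 23 that rose, with 77 of 80 above 0, and DESeq2 gave 8 that rose and 0 that fell. Shares of all tested genes in these fits are not given here, so the counts are not set against a background. This count rested on single libraries: leaving out library 2 of PgLPS gave 42, leaving out its library 1 gave 2, and leaving out library 2 of both agents gave 3. Over the 6 fits that left out 1 library, 903 to 1117 of all tested genes rose, so the count of members moved much more than that of all genes. Rpsa and Rpl3 were called in all 6 of these fits.

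Rpsa had 722, 774 and 677 CPM with both agents, against 512, 637 and 575 CPM with PgLPS. Each library with both agents lay above each PgLPS library (0.33 ± 0.07, edgeR BH-adjusted p = 0.0025). Rpl3 had 583, 621 and 550 CPM with both agents, against 460, 527 and 471 CPM with PgLPS, also without overlap (0.27 ± 0.06, edgeR BH-adjusted p = 0.0040). Rplp0 had 955, 1020 and 952 CPM with both agents and 748, 908 and 834 CPM with PgLPS (0.23 ± 0.07, edgeR BH-adjusted p = 0.016). The groups did not overlap, but the call was lost without PgLPS library 1 (0.16, adjusted p = 0.088, edgeR) and in the absence of library 2 of both agents (0.20, adjusted p = 0.053, edgeR). Rpl14, near the surface of the large subunit, gave 255, 293 and 240 CPM with both agents and 195, 241 and 219 CPM with PgLPS, where the lowest library of both agents and the highest of PgLPS crossed over (0.27 ± 0.08, edgeR BH-adjusted p = 0.029). Rps9 and Rpl27, which were above control with PgLPS under TMM, stood at 0.01 ± 0.10 and 0.06 ± 0.09 and were not called.

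The largest share of reads of this family lay in library 2 both with both agents and with PgLPS. Libraries 1, 2 and 3 of PgLPS gave 1.96%, 2.48% and 2.13% of the scaled total. Neutrophil markers, of which S100a8 and S100a9 carried nearly all reads and Ly6g was at 0 in 3 libraries, summed to 120 to 134 CPM with both agents, 152 to 173 with PgLPS, 62.1 to 89.9 with CS-PA/CNP and 76.3 to 95.6 in control. Stromal markers (Col1a1, Col1a2 and Pdgfrb, none at 0) summed to 1.57 to 3.32 CPM with both agents, 4.92 to 49.3 with PgLPS (highest in library 1), 0.552 to 2.10 with CS-PA/CNP and 0.472 to 2.51 in control. Dendritic cell markers, with Flt3 at 0 in 7 libraries, summed to 3.36 to 4.36 CPM with both agents, 1.62 to 3.81 with PgLPS, 0.447 to 0.718 with CS-PA/CNP and 0.629 to 0.895 in control. Mitochondrial transcripts held 1.21% to 1.28% of reads with both agents, 1.07% to 1.17% with PgLPS, 1.6% to 1.74% with CS-PA/CNP and 1.62% to 1.82% in control. The part of these differences in the results above was not tested.

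In CS-PA/CNP against control, which asks what that agent did without PgLPS, none of the 80 members was called by edgeR or DESeq2 after adjustment. At an unadjusted p under 0.05, 8 were higher by edgeR and 5 passed by DESeq2. Of all tested genes, 6.67% rose and 5.61% fell. The median of the members was 0.10 and 70 of 80 lay above 0, or 57 of 80 with library totals. Rplp0, with 1065, 1077 and 1125 CPM with CS-PA/CNP and 922, 1024 and 1018 CPM in control, was above control in every library (0.14 ± 0.07, edgeR BH-adjusted p = 0.20). Rpl18 had the values 319, 327 and 359 CPM with CS-PA/CNP, against 265, 311 and 291 CPM in control (0.21 ± 0.08, edgeR BH-adjusted p = 0.096). A p above the threshold does not show that the groups were alike, and a fit of these 2 groups alone called 11 members as higher. The share of all tested genes called in that fit is not given here, so the 11 are not set against a background.

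In both agents against control, which asks how far the combined cells stood from control cells, 7 members rose and 6 fell with TMM scaling. Of all tested genes, 29.7% rose and 28.4% fell, so both shares of members were below the background. The median log2 fold change was -0.0058, as was that of all tested genes. The median of the members lay between -0.08 and 0.04 when libraries were left out one at a time. Rps15, Rpsa, Rpl10a, Rpl22 and Rpl3 were among those that fell, and kept that direction under library totals, RLE and upper quartile factors. Leaving out 1 library gave 1 to 15 that fell, with 15 without library 2 of both agents, 1 without its library 3, and 3 without its library 1 or control library 2 or 3. It gave 4 to 8 that rose, with 4 in the absence of control library 1. Over the same fits, 3009 to 3179 of all tested genes fell and 3126 to 3339 rose. Rpsa had 722, 774 and 677 CPM with both agents, against 809, 897 and 889 CPM in control, with no overlap (-0.26 ± 0.07, edgeR BH-adjusted p = 0.0054). Rps9, Rpl18, Rpl27, Rpl38, Rpl7a, Rpl9 and Rpl7l1 rose with TMM, but none of them was called higher with library totals or upper quartile factors. Rps9 had 616, 718 and 621 CPM with both agents, against 453, 534 and 530 CPM in control (0.37 ± 0.10, edgeR BH-adjusted p = 0.0041), and stood at 0.0033 with library totals. Rpl18, of the large subunit, had 350, 393 and 349 CPM with both agents, against 265, 311 and 291 CPM in control (0.33 ± 0.08, edgeR BH-adjusted p = 0.0015), and stood at -0.029 with library totals. Rpl38, whose loss in mice is known to alter translation of Hox messengers, had 86.0, 99.6 and 82.7 CPM with both agents and 65.4, 76.3 and 81.3 CPM in control (0.27 ± 0.10, edgeR BH-adjusted p = 0.030). Its groups did not overlap, but the call was lost without control library 1 or 2 or the second library of both agents. This comparison shares its libraries with the ones above, so the values of a gene are given side by side and not as independent results.

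**Figure D4:**
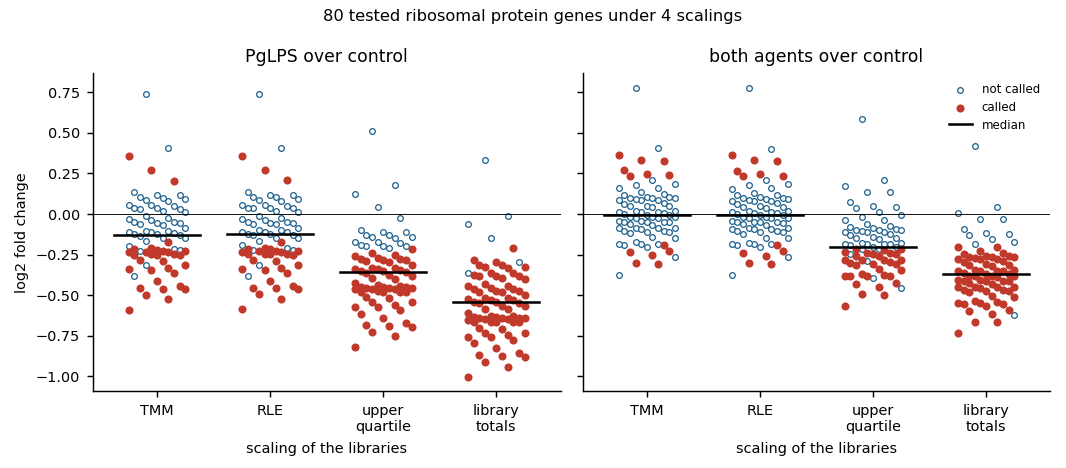
Log2 fold change of the 80 tested members in PgLPS over control (left) and both agents over control (right) under 4 scalings of the libraries, with filled points for adjusted p below 0.05 and a line for the median. On the left the median lies at -0.13 with TMM and -0.54 with library totals, and on the right at -0.01 and -0.37. All tested genes, not drawn, had medians with TMM of -0.0036 on the left and -0.0058 on the right, and a change of scaling moves them too.

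The interaction asks whether adding CS-PA/CNP had a different effect in cells with PgLPS than in cells without. Rpl3 alone of the 80 members was called, at 0.29 ± 0.09 on the log2 scale (edgeR BH-adjusted p = 0.027), where 7.46% of all tested genes were called higher and 8.34% lower, with 3 members higher at an unadjusted p under 0.05. Rpl3 had 583, 621 and 550 CPM with both agents, 460, 527 and 471 with PgLPS, 633, 657 and 676 with CS-PA/CNP and 647, 664 and 687 in control. CS-PA/CNP thus went with a difference of 0.27 ± 0.06 in cells given PgLPS and of -0.02 ± 0.06 in cells without it. The call was lost in 6 of the 12 fits that left out 1 library, with values of 0.24 to 0.29 there: those without control library 3, CS-PA/CNP library 1, PgLPS library 1 or 3, or library 1 or 2 of both agents. Leaving out PgLPS library 2 gave 3 called members. Over the 12 fits, 728 to 854 of all tested genes were called higher and 784 to 991 lower.

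**Figure D5:**
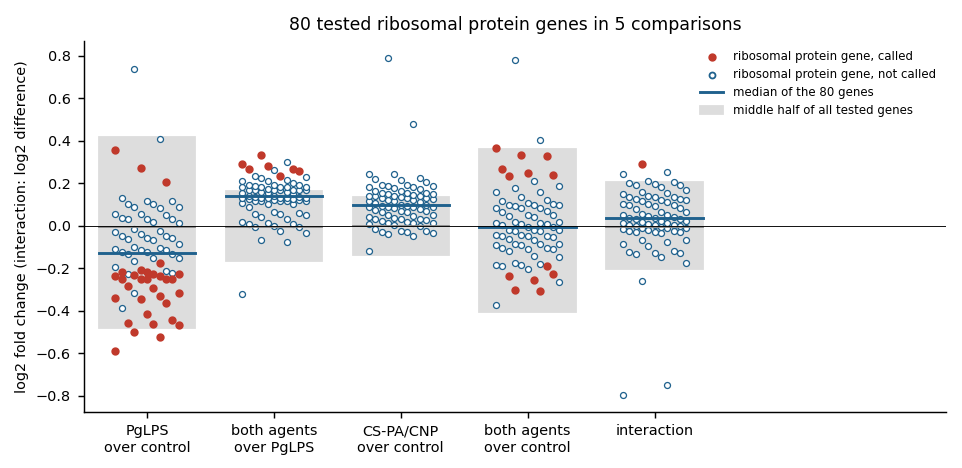
Log2 fold change of the 80 tested members in 5 comparisons (the interaction is a log2 difference), with filled points for called members, a line for their median and a grey band for the range between the lower and upper quartile of all tested genes. In PgLPS over control most members lie inside the band and their median is -0.13, and in both agents over PgLPS their median is 0.14.

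The size of the change differed along the family. Across the 80 members, the Spearman correlation between the log2 fold change in PgLPS over control and coding length was -0.35, with FPKM it was -0.26, and with the percent of shared 100-base words it was -0.12. These are across genes of the same libraries, which are not independent, and longer and more abundant members also have more reads. The 13 tested members that shared under 10% of their words held 4 that fell and 1 that rose, with a median of -0.13. Of the 13 members with a pyrimidine run at the annotated start, all were tested, 3 fell and none rose, with a median of -0.06. Of the 47 other tested members with a promoter entry, 19 fell and 3 rose, with a median of -0.13. Those with CCGGAAG in the promoter fell in 6 of 25 cases and those without in 16 of 35. Of all tested genes, 31.6% fell and 32.2% rose in this comparison. The subsets were not tested against each other or against that background, so no link to a promoter feature is drawn.

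Genes around the ribosome were read from lists. Library totals shift the values of all tested genes as well, and the shares of all tested genes called with them are not given here. List counts with library totals, here and in the paragraphs that follow, are therefore not set against a background. Ribosome biogenesis factors, which build the subunits in the nucleolus, fell in 27 of 49 cases and rose in 5 in PgLPS against control (median -0.22), where 31.6% of all tested genes fell and 32.2% rose. Ncl, the nucleolar protein nucleolin, had 345, 343 and 333 CPM with PgLPS, against 581, 533 and 561 CPM in control (-0.71 ± 0.05, edgeR BH-adjusted p = 3.7e-10). Dkc1, the pseudouridine synthase of ribosomal RNA, had 19.6, 16 and 20.5 CPM with PgLPS, against 49.9, 44.4 and 50.0 CPM in control (-1.36 ± 0.11, edgeR BH-adjusted p = 1.9e-09). In both agents against PgLPS, 22 of the 49 rose and none fell (median 0.23), where 9.42% of all tested genes rose and 10% fell, and the block gave 23 that rose and 1 that fell. Those that rose included Ncl at 0.38 ± 0.05 and Nop56, a core protein of the methylation complexes, at 0.37 ± 0.07. Library totals gave 44 that fell and 1 that rose in the first comparison, and 24 that rose in the second.

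RNA polymerase I genes, which transcribe ribosomal RNA, fell in 7 of 14 cases and rose in 2 with PgLPS against control (11 and 0 with library totals), where 31.6% of all tested genes fell and 32.2% rose. Polr1b stood at -0.81 ± 0.09. Ubtf, a factor that opens the ribosomal RNA genes, rose by 0.37 ± 0.06 with TMM and stood at -0.047 with library totals. Other messengers with a terminal oligopyrimidine tract fell in 10 of 17 cases, none rose, and the median was -0.25, against the same shares of all tested genes. With library totals all 17 fell (median -0.67), a count not set against a background. Nap1l1, a histone chaperone, had 120, 122 and 121 CPM with PgLPS, against 370, 341 and 341 CPM in control (-1.54 ± 0.06, edgeR BH-adjusted p = 2.55e-14), and rose by 0.47 ± 0.06 in both agents against PgLPS. Npm1, a nucleolar chaperone on both lists, changed by -0.75 ± 0.06 and by 0.32 ± 0.06 in the same comparisons.

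Initiation factors rose in 12 of 33 cases and fell in 7 with PgLPS against control under TMM, where library totals gave 2 that rose and 24 that fell. Of all tested genes, 32.2% rose and 31.6% fell, so the share of initiation factors that rose was near the background and the share that fell was below it. The lists that follow hold 10, 12 and 18 tested genes, so their shares are coarse and were not tested against that background. Eif6, which keeps the large subunit from joining too early, rose by 1.02 ± 0.09, and Eif4b, a helper of the RNA helicase of initiation, changed by -0.70 ± 0.05. Elongation and release factors rose in 2 of 10 cases and fell in 4 (0 and 9 with library totals), with Eef1b2 at -0.68 ± 0.08. Genes of ribosome rescue and collision response rose in 5 of 12 cases and fell in 4 (2 and 7 with library totals), with Ascc3 at 1.17 ± 0.09. Among 18 genes that control ribosome production, 5 rose and 4 fell with TMM, where library totals gave 3 and 12. Mxd1, a repressor that competes with Myc for Max, had 75.9, 70.0 and 70.3 CPM with PgLPS, against 10.8, 11.5 and 11.7 CPM in control (2.67 ± 0.12, edgeR BH-adjusted p = 4.5e-13). Larp1, the binder of the pyrimidine tract, rose by 1.17 ± 0.08. Myc, the transcription factor known to drive ribosome genes, had 56.3, 50.9 and 61.0 CPM with both agents, 23.3, 24.4 and 30.5 with PgLPS, 105, 80.1 and 90.3 with CS-PA/CNP and 77.1, 78.3 and 82.2 in control. In both agents against PgLPS it rose by 1.1 ± 0.11, without overlap (edgeR BH-adjusted p = 6.6e-07), and in PgLPS against control it changed by -1.60 ± 0.11.

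The mitochondrial ribosomal proteins, nuclear genes for another ribosome, rose in 14 of 77 cases and fell in 14 with PgLPS against control, with a median of 0.05, where library totals gave 6 and 49. Both shares with TMM were below those of all tested genes, of which 32.2% rose and 31.6% fell. In CS-PA/CNP against control, 7 of the 77 rose and none fell, or 4 rose with library totals, and the share with TMM was near the 6.67% of all tested genes that rose. Mrpl52 had 109, 159 and 122 CPM with PgLPS, against 21.7, 26.4 and 22.9 CPM in control (2.46 ± 0.14, edgeR BH-adjusted p = 9.0e-12), the largest log2 fold change of that list.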

How the data were processed

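Gene expression was measured by RNA sequencing in 12 libraries, 4 groups of 3. The authors' deposited table gives the read count of each gene per library, as whole numbers, and a gene length. Its 12 columns of authors' FPKM were not used, and FPKM here are counts divided by that length and by the library total. Tools listed in the submitters' processing notes, without their roles, are DESeq 1.30.0, HTSeq 0.9.1, HISAT2 2.0.5 and cutadapt 1.15. The genome build, and whether strand or several matches of a read were taken into account, was not given in the sources used here. A gene and an overlapping or antisense neighbour could therefore share reads. Count columns were placed in groups by the letters of their names (L, LM, M and C), a reading the labels do not spell out. Their numbers could not be matched to sample titles and serve as library numbers only. The labels give no pairing, but deviations of same-numbered libraries of both agents and PgLPS correlated at 0.19, 0.39 and 0.11, each over 0.1. For this reason a block by number was read beside that comparison. Library 1 of PgLPS and library 3 of both agents also correlated at 0.16, so the limit of 0.1 does not single out equal numbers.

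All 12 libraries entered 1 fit in edgeR 4.0.16 (R 4.3.3) with a mean per group and TMM factors. The filterByExpr filter left 11656 genes with 99.97% of reads, and 80 of the 83 members. Each comparison used the 2-sided quasi-likelihood test with Benjamini-Hochberg adjustment over these genes and a threshold of 0.05. Errors of log2 fold changes are standard errors of that fit, and errors of levels are SD over 3 libraries. The members and lists were chosen with earlier results of these data known. Genes named are the paralogues, their parents, the stalk genes and Rpsa, the 5 highest and 5 lowest called members per comparison, up to 3 genes of each other list with the smallest adjusted p, and the members that failed the filter. Rpl5, Rpl9, Rpl11, Rpl13a, Rpl15, Rpl23a, Rpl35, Rps3a1, Rps6 and Rps10, and the ratio of Rps9 to Rpsa, were added after their values were seen. Some genes that the rule would name are not reported here. The number of libraries and their depth limit the precision of each value. Alternatives were library totals, RLE and upper quartile factors, DESeq2 1.42.0, no filter, only the groups compared, a replicate block, and leaving out each library. Sequence sharing, as words of 100 bases, and exon overlaps came from GENCODE vM21, and promoters from RefSeq. The main fit was tested on simulated data with known changes in PgLPS against control. It recovered 44% of 100 genes changed 1.5-fold and 85% of 100 changed 2-fold, and called 3 unchanged genes. Smaller changes were not simulated. The simulation held no shift of scale between groups, so it cannot judge the choice of scaling.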

Additional observations from a re-analysis of the deposited data

Results flagged for a closer look

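The effect of CS-PA/CNP in cells with PgLPS differed from that in cells without it, by the interaction term of the fit (edgeR, BH-adjusted p over all tested genes), for 1 of 80 ribosomal protein genes and 13 of 220 tested genes of the lists around the ribosome. Of those 220, 9 were higher (4.09%) and 4 lower (1.82%), below the 7.46% and 8.34% of all tested genes. Rpl3 and the 12 list genes that the rule for named genes covers are given here. Positive values mean that the log2 fold change of both agents over PgLPS exceeded that of CS-PA/CNP over control. Rpl3 stood at 0.29 (adjusted p = 0.027). Among nucleolar and biogenesis genes, Ncl stood at 0.37 (0.0011), Npm1 at 0.33 (0.0075) and Nop58, a core protein of the methylation complexes, at 0.40 (0.017), and Polr1c, a polymerase subunit, at 0.46 (0.035). The messengers with a terminal oligopyrimidine tract Nap1l1 and Eif4b stood at 0.65 (9.7e-06) and 0.34 (0.0040). Myc stood at 0.89 (0.00028) and Rptor, the mTOR partner, at 0.44 (0.013). Lower values were found for Eif4g2, an initiation factor, at -0.31 (0.0078), Eif2b3, an exchange factor subunit, at -0.50 (0.022), Ankzf1, a ribosome rescue gene, at -0.47 (0.024), and Mrpl52 at -0.91 (0.0018). With library totals the calls of Eif4g2 (-0.22, adjusted p = 0.070), Eif2b3 (-0.41, 0.060) and Ankzf1 (-0.38, 0.075) were lost, and 24 list genes were higher and 1 lower. The shares of all tested genes called with library totals are not given here.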

How the results depend on the processing

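The scaling of libraries decided how many members were called in the comparisons that set PgLPS against cells without it. With library totals, 74 members fell and 0 rose in PgLPS against control (median -0.54), 67 fell and 0 rose in both agents against control (median -0.37), 23 rose in both agents against PgLPS, and 4 were higher in the interaction. With upper quartile factors, the first comparison gave 59 that fell and 0 that rose (median -0.36), both agents against control gave 33 and 0 (median -0.20), and both agents against PgLPS gave 12 that rose. A change of factor moves every gene of a library, so these counts include a shift of all tested genes. With TMM, the members' median in both agents against control was -0.0058, as was that of all tested genes. Shares of all tested genes called with these factors are not given here. The share of reads in PgLPS over control was 0.889, and in both agents over control 0.993, on totals times TMM factors. Under library totals these genes that had risen in PgLPS against control turned to Rpl7l1 -0.21, Rps9 -0.061, Rpl27 -0.15 and Ubtf -0.047, and Rpl7l1 to -0.024 with upper quartile factors. In both agents against control, library totals turned Rpl7l1 to -0.12, Rpl18 to -0.029, Rpl27 to -0.033, Rpl38 to -0.094, Rpl7a to -0.11, the release factor gene Gspt1 to -0.025 and Ubtf to -0.050. RLE factors and DESeq2 left each count within 1.5 times of that with TMM. Without the filter on low counts, 19 members rose in both agents against PgLPS, 2 rose in CS-PA/CNP against control, 10 fell in both agents against control, and 2 were higher in the interaction. A fit of only the groups compared called 11 higher in CS-PA/CNP against control. The shares of all tested genes in these fits are not given here, so their counts are not set against a background. The cause of these differences was not tested.

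Leaving out 1 library at a time gave 19 to 46 members that fell and 1 to 5 that rose in PgLPS against control, 2 to 42 that rose in both agents against PgLPS, 1 to 15 that fell and 4 to 8 that rose in both agents against control, and 0 to 3 in the interaction. Of all tested genes, these fits gave 3372 to 3633 that fell in PgLPS against control. They gave 903 to 1117 that rose in both agents against PgLPS. In alternatives added after seeing the data, members sharing under 10% of their words and members of at least 10 FPKM gave medians of -0.13 each in PgLPS against control, as did all tested members.

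Over all 18 pairs of libraries with the same number, deviations correlated at -0.11 to 0.39 (median 0.14), and 11 pairs were over 0.1. Over the 36 pairs with different numbers the median was -0.074, and 7 were over 0.1. Deviations within a group sum to 0, so higher values for equal numbers go with lower values for different ones. The 2 medians are therefore not independent. Some pairs outside both agents and PgLPS were as high as those inside, such as library 2 of control and of PgLPS at 0.23. Pairs of library 3 lay at -0.11 to 0.11. The numbers may therefore pair libraries in other comparisons too, which the labels do not settle. With the number as a replicate block, 28 members rose in both agents against PgLPS, 12 rose in CS-PA/CNP against control, 13 fell and 12 rose in both agents against control, and 3 were higher in the interaction. In PgLPS against control, the block gave 36 that fell and 3 that rose. The background under the block is given only for both agents against PgLPS, where 12% of all tested genes rose and 12.9% fell. The other counts with the block are not set against one.

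Depth limits the weakest members: 3 counts over a group corresponded to 0.066 CPM with PgLPS. Counts of members with near-identical copies, and of members that overlap other genes, depend on the authors' counting, and a shift of the whole family cannot be told apart from a shift of all other messengers.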
